A study of Homo sapiens with 36 samples.

Results

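The clusters described here each covered a whole intron: they lay on the strand of the gene and reached at least 1 nt into the exon on either side of an intron. For each GENCODE 44 protein-coding gene on GRCh38, introns were taken from the isoform whose exons add up to the greatest length. Of 278185 clusters in 18 lists, 625 did so, and they covered 366 distinct introns in 276 genes, out of 174500 introns in 18717 genes with an intron. The choice rested on positions alone and used no score or group.

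SCAF4 and SCAF8 are RNA-binding proteins that bind the phosphorylated C-terminal domain of RNA polymerase II, and are known for keeping transcription from ending at early polyadenylation sites. The clusters came from PAR-CLIP, in which 4-thiouridine (4SU) is built into RNA, crosslinked to bound protein by ultraviolet light and read as T-to-C changes. The lists fell into 6 groups of 3 replicates: FLAG immunoprecipitates (IP) of FLAG-SCAF4 and of FLAG-SCAF8, a control IP, and the input of each. All cells were Flp-In T-REx HEK293, an established human embryonic kidney line, carrying an inducible FLAG-SCAF4 or FLAG-SCAF8 transgene for the SCAF4 and SCAF8 groups and no tagged protein for the controls. Every group, controls included, received 100 μM 4SU overnight, 500 μM 4SU for 2 h and 365 nm light at 2000 J per m2. The extracts of every group were treated with RNase I at 30 U per mL. The labels give doxycycline, at 100 ng per mL overnight, for the tagged lines. The study's methods describe doxycycline, at a higher dose, for the parental control cells as well, so it is unsettled whether the controls received it. The tagged proteins were thus expressed from a transgene beside the cells' own SCAF4 and SCAF8. The input was 1% of the extract set aside before the IP, and each list combined a soluble and a chromatin fraction, so the 18 lists stand for 36 libraries and the fractions cannot be told apart.

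In splicing, the spliceosome removes an intron by joining the 5′ splice site of one exon to the 3′ splice site of the next. Very short introns are recognised as a unit, with both splice sites bound at once, and some of them stay in the finished RNA as retained introns. The reads were aligned without splicing, so a read from spliced RNA can lie across a splice site only by the few bases that mismatches allow. A cluster that reaches well past both splice sites of one intron therefore describes RNA that still held that intron. For clusters that reach only a few nt into an exon this is less certain. Of the 625 clusters, 541 reached at least 10 nt past both ends of an intron. One cluster may join several overlapping reads, which may come from different RNA molecules.

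The shortest cluster over each of 10 introns is printed here, to show the exons, the splice sites and the intron that it spans. The sequences are the GRCh38 reference, written 5′ to 3′ on the strand of the gene, with the intron in capitals, the exons in lower case and T for U. Each T is a place where 4SU could have been built in.
HNRNPA1 intron 6, chr12:54282579-54282802, plus strand: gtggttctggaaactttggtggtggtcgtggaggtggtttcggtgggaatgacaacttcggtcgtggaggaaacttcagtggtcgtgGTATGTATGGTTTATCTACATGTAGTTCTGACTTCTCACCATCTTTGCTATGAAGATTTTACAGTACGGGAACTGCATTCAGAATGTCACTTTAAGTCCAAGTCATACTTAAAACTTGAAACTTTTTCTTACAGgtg
WDR6 intron 2, chr3:49014010-49014291, plus strand: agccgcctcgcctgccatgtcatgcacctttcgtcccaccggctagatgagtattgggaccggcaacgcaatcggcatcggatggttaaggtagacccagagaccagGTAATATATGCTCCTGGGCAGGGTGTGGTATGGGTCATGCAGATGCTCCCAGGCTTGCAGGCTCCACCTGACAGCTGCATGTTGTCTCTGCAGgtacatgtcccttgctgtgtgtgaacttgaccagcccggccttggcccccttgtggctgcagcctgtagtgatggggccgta
METTL17 intron 2, chr14:20990269-20990496, plus strand: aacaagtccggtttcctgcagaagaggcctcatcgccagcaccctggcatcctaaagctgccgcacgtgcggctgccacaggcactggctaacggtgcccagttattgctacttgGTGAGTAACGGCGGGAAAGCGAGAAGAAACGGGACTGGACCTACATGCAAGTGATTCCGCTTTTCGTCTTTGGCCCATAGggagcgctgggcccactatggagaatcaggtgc
NARS1 intron 3, chr18:57615646-57615887, minus strand: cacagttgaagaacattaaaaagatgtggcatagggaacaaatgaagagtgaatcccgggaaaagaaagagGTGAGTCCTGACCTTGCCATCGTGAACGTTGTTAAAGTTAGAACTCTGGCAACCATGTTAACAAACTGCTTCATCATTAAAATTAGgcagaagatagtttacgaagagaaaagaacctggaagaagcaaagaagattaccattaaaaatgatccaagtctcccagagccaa
DYNC1H1 intron 14, chr14:101994991-101995190, plus strand: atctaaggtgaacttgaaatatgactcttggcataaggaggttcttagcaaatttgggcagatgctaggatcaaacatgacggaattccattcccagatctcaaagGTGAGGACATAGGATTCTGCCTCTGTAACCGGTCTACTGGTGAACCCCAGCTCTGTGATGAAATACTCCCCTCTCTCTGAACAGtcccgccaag
SRCAP intron 17, chr16:30716126-30716307, plus strand: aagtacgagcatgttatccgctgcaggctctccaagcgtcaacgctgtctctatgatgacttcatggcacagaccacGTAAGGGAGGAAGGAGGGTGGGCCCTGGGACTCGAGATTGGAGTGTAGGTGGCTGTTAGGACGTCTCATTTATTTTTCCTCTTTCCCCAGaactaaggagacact
HDAC10 intron 1, chr22:50250777-50251010, minus strand: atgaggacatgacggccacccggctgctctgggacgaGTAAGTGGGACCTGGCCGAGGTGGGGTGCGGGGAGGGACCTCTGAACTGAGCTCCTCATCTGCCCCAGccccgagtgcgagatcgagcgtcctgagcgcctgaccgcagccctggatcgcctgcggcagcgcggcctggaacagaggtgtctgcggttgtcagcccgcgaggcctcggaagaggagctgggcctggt
PRRC2A intron 7, chr6:31625581-31625834, plus strand: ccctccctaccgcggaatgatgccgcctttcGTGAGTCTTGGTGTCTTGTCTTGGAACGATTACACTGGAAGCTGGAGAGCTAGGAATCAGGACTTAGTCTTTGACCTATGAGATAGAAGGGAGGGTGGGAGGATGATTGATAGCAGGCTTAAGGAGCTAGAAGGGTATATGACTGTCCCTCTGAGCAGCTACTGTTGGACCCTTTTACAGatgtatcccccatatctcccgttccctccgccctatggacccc
TRIM28 intron 16, chr19:58550280-58550537, plus strand: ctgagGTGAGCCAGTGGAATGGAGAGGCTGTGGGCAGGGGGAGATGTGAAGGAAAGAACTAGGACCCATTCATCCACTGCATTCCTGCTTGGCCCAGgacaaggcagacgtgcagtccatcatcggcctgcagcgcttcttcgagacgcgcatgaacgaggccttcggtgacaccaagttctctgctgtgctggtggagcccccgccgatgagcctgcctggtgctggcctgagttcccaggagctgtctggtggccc
ABCF1 intron 13, chr6:30584330-30584562, plus strand: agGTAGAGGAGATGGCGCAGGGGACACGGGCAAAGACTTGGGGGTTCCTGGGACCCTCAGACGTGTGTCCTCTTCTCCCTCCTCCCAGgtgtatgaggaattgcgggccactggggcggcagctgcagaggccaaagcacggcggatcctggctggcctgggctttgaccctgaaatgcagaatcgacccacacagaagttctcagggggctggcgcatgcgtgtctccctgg

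All 10 introns began with GT and ended with AG, and all 10 lay between coding exons. HNRNPA1 (a splicing regulator) and WDR6 (a partner in tRNA methylation) were covered in the most SCAF4 and SCAF8 IP lists of the 10. METTL17 (a mitochondrial ribosome factor), NARS1 (the cytoplasmic asparaginyl-tRNA synthetase), DYNC1H1 (the dynein heavy chain) and SRCAP (a chromatin remodelling ATPase) were covered in every SCAF4 IP list. HDAC10 (a polyamine deacetylase) and PRRC2A (an RNA-binding protein) hold introns near the short and the long end of those covered repeatedly. TRIM28 (the corepressor of KRAB zinc finger proteins) and ABCF1 (a ribosome-associated ABC protein) each hold an intron that is itself an annotated microRNA hairpin.

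Over those introns, the clusters of different lists did not share their ends. On HNRNPA1 intron 6, which is 134 nt long, the cluster measured 224, 262 and 442 nt in the SCAF4 IP and 274 and 294 nt in replicates 1 and 3 of the SCAF8 IP. It ran 87 to 128 nt into the upstream exon and between 3 and 180 nt into the downstream exon. On SRCAP intron 17 (90 nt) the clusters measured 182, 248 and 232 nt in SCAF4 IP replicates 1, 2 and 3 and stayed within 21 nt of the 3′ splice site on the exon side. On NARS1 intron 3 (86 nt) they measured 242, 332 and 324 nt and stopped 83 to 85 nt into the downstream exon in all 3 lists. The upstream ends were thus spread, whereas the downstream ends on SRCAP and NARS1 lay within a few nt of each other.

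**Figure D1:**
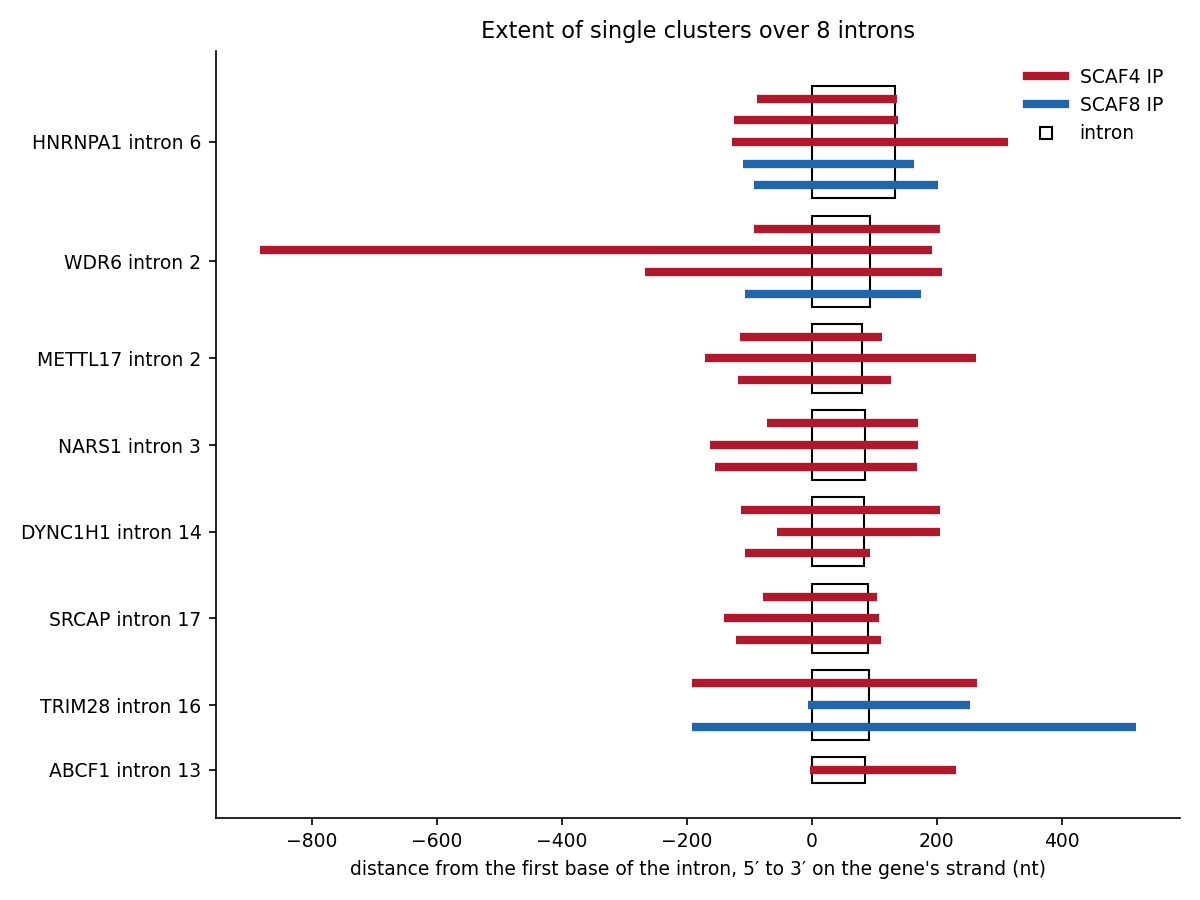
Extent of every single cluster that covered 8 of the introns shown above, in nt from the first base of the intron (boxes are introns, bars are clusters of 1 list each, coloured by IP). The longest bar is the 1076 nt cluster over WDR6 intron 2 in SCAF4 IP replicate 2, and the ABCF1 cluster starts 2 nt upstream of the intron.

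Clusters covering a whole intron made up a larger share of the SCAF4 and SCAF8 IP lists than of their inputs. In the SCAF4 IP there were 33 of 18991, 221 of 54404 and 138 of 33962 clusters in replicates 1, 2 and 3, or 0.174%, 0.406% and 0.406%. In the SCAF8 IP there were 51 of 25189, 27 of 18287 and 96 of 41502, or 0.2025%, 0.148% and 0.231%. Replicate 1 of the SCAF4 IP thus lay with the SCAF8 IP lists, and the other SCAF4 IP lists lay above all of them. The SCAF4 inputs held 6 of 11715, 2 of 5114 and 3 of 4793 (0.0512%, 0.0391% and 0.0626%), and the SCAF8 inputs 10 of 9146, 8 of 10361 and 4 of 9008 (0.109%, 0.0772% and 0.0444%). The control IP held 10 of 9638, 2 of 2314 and 1 of 1621 (0.104%, 0.0864% and 0.0617%), and the control input 9 of 12493, 3 of 4567 and 1 of 5080 (0.0720%, 0.0657% and 0.0197%). Every SCAF4 and SCAF8 IP list was above every one of the 12 other lists. The exact 95% Clopper-Pearson interval ran from 0.0973 to 0.215% in the lowest of these IP lists, SCAF8 IP replicate 2. It ran from 0.0524 to 0.201% in the highest input, SCAF8 input replicate 1, so these 2 lists could not be told apart within counting error. Such intervals cover counting error only, and the read depth behind the lists is unknown.

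The IP lists of both proteins averaged 0.261% ± 0.116 and their inputs 0.0640% ± 0.0261 (SD, n = 6 each), a 4.08-fold difference of 0.197 percentage points (exact permutation test, two-sided, p = 0.00216, which is the lowest value these groups allow, 0.00722 after Benjamini-Hochberg adjustment over 10 comparisons). With IP and input paired by replicate number, the exact permutation p was 0.0312, the lowest value that pairing allows. The ratio was 2.61-fold with MANE Select isoforms. Without the introns covered in 3 or more input or control IP lists it was 9.45-fold. That filter picks introns by the inputs and control IP lists themselves, so it lowers their shares by construction. Against the control IP, at 0.0840% ± 0.0211 (SD, n = 3), the share was 3.11-fold higher without overlap (exact permutation p = 0.0476, adjusted 0.0952), which did not pass after adjustment. With MANE Select isoforms in place of the longest ones, this second difference was 0.1045 percentage points (exact permutation p = 0.214). The SCAF4 IP averaged 0.329% ± 0.134 and the SCAF8 IP 0.194% ± 0.0425 (SD, n = 3 each), and their ranges overlapped (exact permutation p = 0.3, where the smallest possible is 0.1). The control IP and its input, the latter at 0.0525% ± 0.0286 (SD, n = 3), overlapped too (exact permutation p = 0.3). The IP lists of the tagged lines were also the longest lists, at 18287 to 54404 clusters against 4793 to 11715 in their inputs and 1621 to 9638 in the control IP, so list size and IP cannot be told apart.

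**Figure D2:**
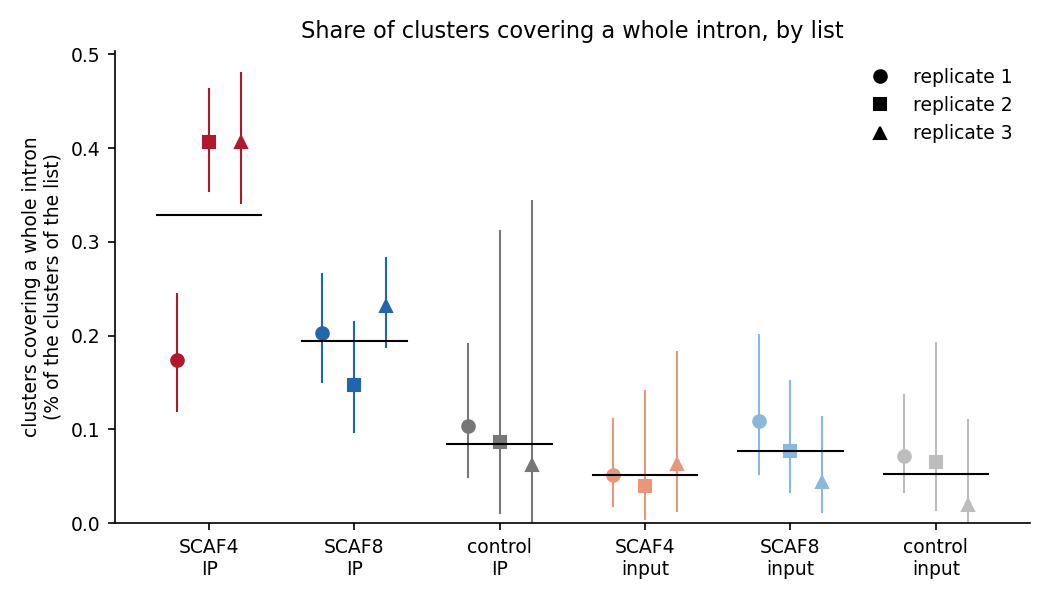
Percent of the clusters of each list that covered a whole intron (points are lists, vertical lines exact 95% Clopper-Pearson intervals, horizontal lines group means). The 6 SCAF4 and SCAF8 IP lists sit between 0.148 and 0.406%, and the highest of the other 12 is 0.109%.

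Clusters covering an intron were long. Their median length was 300 nt (106 to 1146 nt), against 147 nt over all clusters, and 77 of the 625 were over 500 nt. No cluster under 100 nt covered an intron in any group: 0 of 15891 in the SCAF4 IP allows a share of up to 0.0189% by the limit of 3 counts (0.0232% as the upper end of the exact 95% Clopper-Pearson interval). Among SCAF4 IP clusters the share rose from 0.0739% at 100 to 199 nt through 0.710% at 200 to 299 nt and 2.93% at 300 to 499 nt to 4.63% at 500 nt or more. Among SCAF8 IP clusters the same classes gave 0.0513%, 0.495%, 1.20% and 3.11%. The longer the cluster, the more often it held an intron, in both IPs.

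Median cluster length ran from 141 to 155 nt over the SCAF4 and SCAF8 IP lists and from 137 to 161 nt over their inputs, so the lists overlapped in length. Among clusters of 100 to 200 nt, the share covering an intron was 0.0415 to 0.108% in the IP lists and 0 to 0.0342% in the inputs. These 2 groups did not overlap in this length range either, with means of 0.0638% ± 0.0246 and 0.0160% ± 0.0146 (SD, n = 6 each, exact permutation p = 0.00216, adjusted 0.00722). These shares rested on only 5 to 23 covering clusters in each IP list and 0 to 2 in each input. The control lists did reach into the IP range: replicate 1 of the control IP stood at 0.0495% and replicate 1 of the control input at 0.0501%, above replicate 1 of the SCAF4 IP (0.0415%) and of the SCAF8 IP (0.0450%). On MANE Select isoforms the difference from the inputs was 0.0242 percentage points (exact permutation p = 0.236). Among clusters of 200 to 400 nt the difference was 0.534 percentage points (exact permutation p = 0.00216).

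At short introns most clusters over a splice site crossed only one of them. At introns of 150 nt or less, clusters over the 5′ splice site alone made up 49.9% ± 1.58 in the SCAF4 IP and 53.0% ± 2.33 in the SCAF8 IP (SD, n = 3 lists each). Clusters over the 3′ splice site alone made up 37.5% ± 2.58 and 36.1% ± 1.54. Clusters over the whole intron made up 5.52, 9.36 and 8.96% in the SCAF4 IP and 7.69, 4.58 and 7.92% in the SCAF8 IP. The inputs gave 2.69, 2.27 and 3.85% (SCAF4) and 7.20, 4.91 and 2.67% (SCAF8). The remaining clusters crossed splice sites of neighbouring introns without covering either. The IP lists averaged 7.34% ± 1.90 and the inputs 3.93% ± 1.87 (SD, n = 6 each), and the ranges overlapped (exact permutation p = 0.013, adjusted 0.0325). The SCAF4 IP lay above all its own inputs, whereas the SCAF8 IP overlapped with its inputs (6.73% ± 1.87 against 4.92% ± 2.27, SD, n = 3 each). On MANE Select isoforms the pooled difference was 1.85 percentage points (exact permutation p = 0.184), and with IP and input paired by replicate number p was 0.0625.

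**Figure D3:**
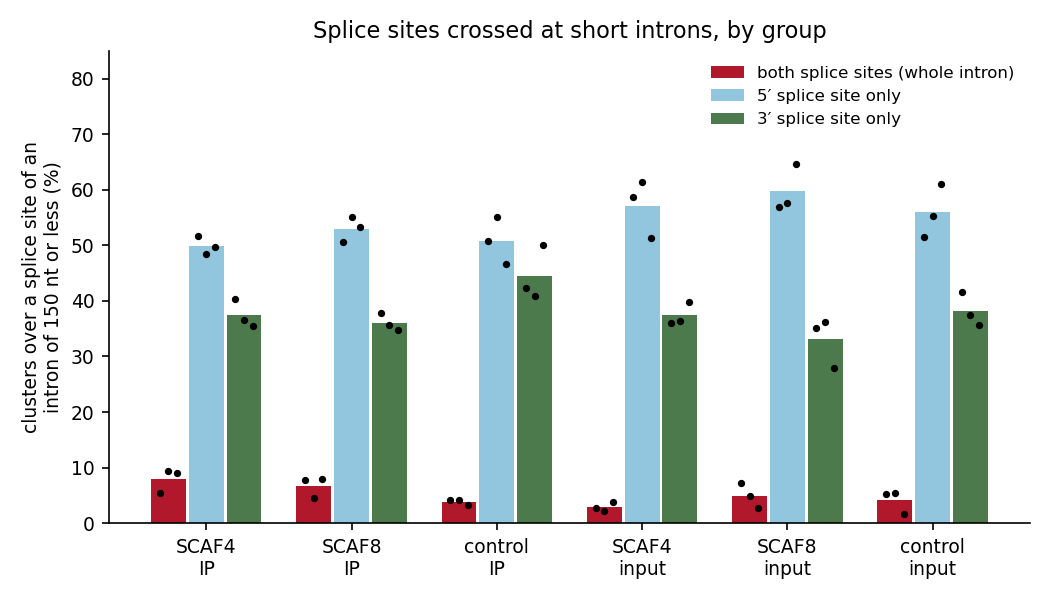
Clusters over a splice site of an intron of 150 nt or less, split by which splice sites they crossed, as percent of such clusters (bars are means of 3 lists, points are lists). The 5′ splice site alone was crossed most often in every group mean, and the whole intron was covered in 2.94 to 7.95% on average.

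Whole exons were covered far more often than whole introns: 12636 clusters covered an internal exon, with at least 1 nt of intron on either side. Within 70 to 150 nt, the log2 ratio of the share of introns covered to the share of internal exons covered was −1.95, −1.34 and −1.35 in the SCAF4 IP and −1.59, −2.23 and −1.55 in the SCAF8 IP. It was −2.55, −3.16 and −1.75 in the SCAF4 inputs and −1.43, −1.36 and −2.24 in the SCAF8 inputs. Every value was below 0, so at the 1 nt extension exons were covered more often than introns of like length in each of these lists. The ratio was −1.67 ± 0.353 in the IP and −2.08 ± 0.703 in the inputs (SD, n = 6 each), a difference of 0.41 that did not pass (exact permutation p = 0.229, adjusted 0.328) and that turned to −0.03 when an extension of 10 nt was required. With the 10 nt extension the ratio averaged −0.699 in the IP and −0.668 in the inputs, so the excess of exons was smaller.

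The covered introns were short. Their median length was 92 nt (interquartile range 82 to 114 nt, from 56 to 446 nt), and 310 of 366 were 70 to 150 nt long, while the median over all introns was 1579 nt and only 9.24% were 150 nt or less. Of introns of 30 to 69 nt, 9.18% were covered in some SCAF4 or SCAF8 IP list. The share fell with length to 4.09% at 70 to 79 nt, 2.70% at 80 to 89 nt, 1.78% at 90 to 99 nt, 1.62% at 100 to 119 nt and 0.875% at 120 to 149 nt. It was 0.192% at 200 to 299 nt and 0.0313% at 300 to 499 nt. Among introns with an IP cluster on a flanking exon, the shares were higher but fell in the same order, from 32.1% (9 of 28) at 30 to 69 nt to 9.66% (97 of 1004) at 80 to 89 nt and 0.118% (4 of 3377) at 300 to 499 nt. A short intron can be covered by a shorter cluster, so the choice of members itself favours short introns. Median length did not separate IP from input lists (90.5 nt ± 1.48 against 92.7 nt ± 9.91, SD, n = 6 each, exact permutation p = 0.58). Without the 8 introns covered in 3 or more input or control IP lists, the difference was −24.0 nt (exact permutation p = 0.0974). That filter picks introns by the inputs themselves, and 5 input lists kept a value.

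**Figure D4:**
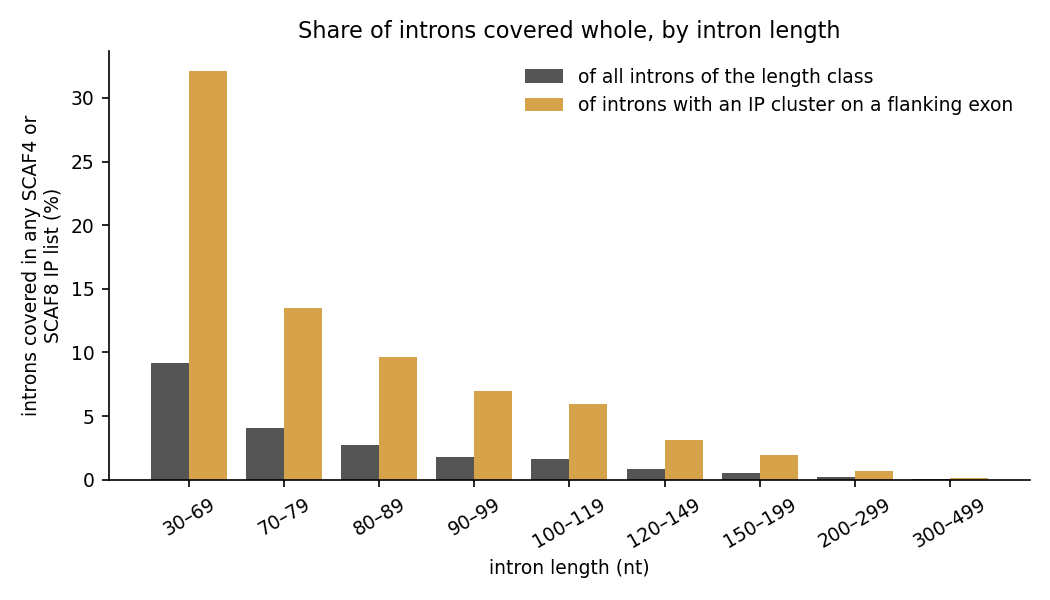
Percent of introns of each length class covered whole in at least 1 SCAF4 or SCAF8 IP list, of all introns (grey) and of introns with an IP cluster on a flanking exon (yellow). Both shares fall at every step from 30 to 69 nt to 300 to 499 nt.

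Covered introns lay throughout genes. First introns numbered 28 and last introns 34 of 366, and the median intron number was 7 (highest 73). Intron numbers count along the isoform chosen for each gene, which can differ from the MANE Select isoform. Within 70 to 150 nt, first introns made up 7.14% of those covered in the IP and 5.30% of all 16013 introns. Last introns made up 9.09% and 9.49%, and introns between coding exons 62.7% and 77.0%. The share of first introns among the covered introns of a list averaged 9.98% ± 5.29 in the IP and 22.8% ± 19.6 in the inputs (SD, n = 6 each), with overlapping ranges (exact permutation p = 0.145). The difference of −12.84 percentage points was −3.87 without replicate 3 and −33.64 without introns exonic in another transcript or gene, and the input shares rested on 2 to 10 introns a list. On MANE Select isoforms the share of first introns averaged 4.56% in the IP and 12.9% in the inputs (exact permutation p = 0.247). Between coding exons lay 229, in the 3′ untranslated part of the isoform 33, in the 5′ part 7, and 97 belonged to genes whose longest isoform has no coding sequence. Most of them, 341, are also introns of the MANE Select isoform, and 5 lie within a MANE Select exon. In 154 (42.1%) another annotated transcript of the gene keeps the intron, 22 overlap an exon of another gene on that strand, and 202 do neither. The dinucleotides at the ends were GT and AG in 360, GC and AG in 5 and others in 1.

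Among introns of 70 to 150 nt, those covered in the IP had a median GC content of 56.6% (n = 308), those covered in 3 or more IP lists 51.5% (n = 53), and those reached on a flanking exon but not covered 57.8% (n = 4082). Median U content in the same order was 24.9%, 29.3% and 24.4%. Introns that no other transcript or gene annotates as exonic made up 55.8%, 43.4% and 77.0%. The repeatedly covered introns thus held more U and were more often annotated as exonic elsewhere. The letters CTCC or CACC, read on the strand of the gene, were found in 56.8%, 54.7% and 67.2% of the introns, and in 69.3% of all 16013 introns of this length. A CAG with G or C on either side was found in 45.5%, 32.1% and 51.2%, and in 53.0% of all. GGG was found in 79.9%, 75.5% and 77.3%, and in 76.0% of all, and CGG or CGA in 56.8%, 56.6% and 50.9%, and in 52.9% of all. The sets were described with no test, and a match of letters is not a binding site.

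Over lists, the median GC content of the covered introns was 48.1 to 58.7% in the IP and 36.2 to 46.7% in the inputs, without overlap. The input medians rested on 2 to 10 introns a list, and the lists shared introns. HNRNPH1 intron 2 (GC 37.5%) was covered in all of these inputs but SCAF8 input replicate 3. The means were 53.9% ± 3.75 and 42.3% ± 3.51 (SD, n = 6 each, exact permutation p = 0.00216, adjusted 0.00722). Without the 8 introns covered in 3 or more input or control IP lists the difference was 5.63 percentage points and did not pass (exact permutation p = 0.136). That filter picks introns by the inputs themselves, and 5 input lists kept a value.

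Many introns were covered once, and few repeatedly. Of 366 introns, 229 were covered in 1 list only, 364 in some SCAF4 or SCAF8 IP list, 26 in some input and 12 in some control IP list. SCAF4 IP lists covered 309 and SCAF8 IP lists 142, and 87 introns were shared, or 28.2% of the SCAF4 set and 61.3% of the SCAF8 set. In 2 or more lists were 85 (SCAF4) and 29 (SCAF8) introns, and in all 3 lists 13 and 8. Like shares over all clusters are not given here. These counts therefore do not tell whether sharing or recurrence is particular to covered introns. No input or control IP list covered 336 of the 366 introns whole, although only 220 had no cluster of any extent on the intron in those 12 lists. Of 343 merged regions holding these clusters, 113 (32.9%) had clusters in at least 2 of 3 SCAF4 IP lists and in none of the 12 input and control IP lists, against 17.4% of all 82383 merged regions. For SCAF8 the counts were 47 (13.7%) against 8.38%. At the same time 173 (50.4%) had a cluster in some input or control IP list, against 34.9% of all regions. The members are longer than most clusters, and the part of length in these shares was not tested.

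**Figure D5:**
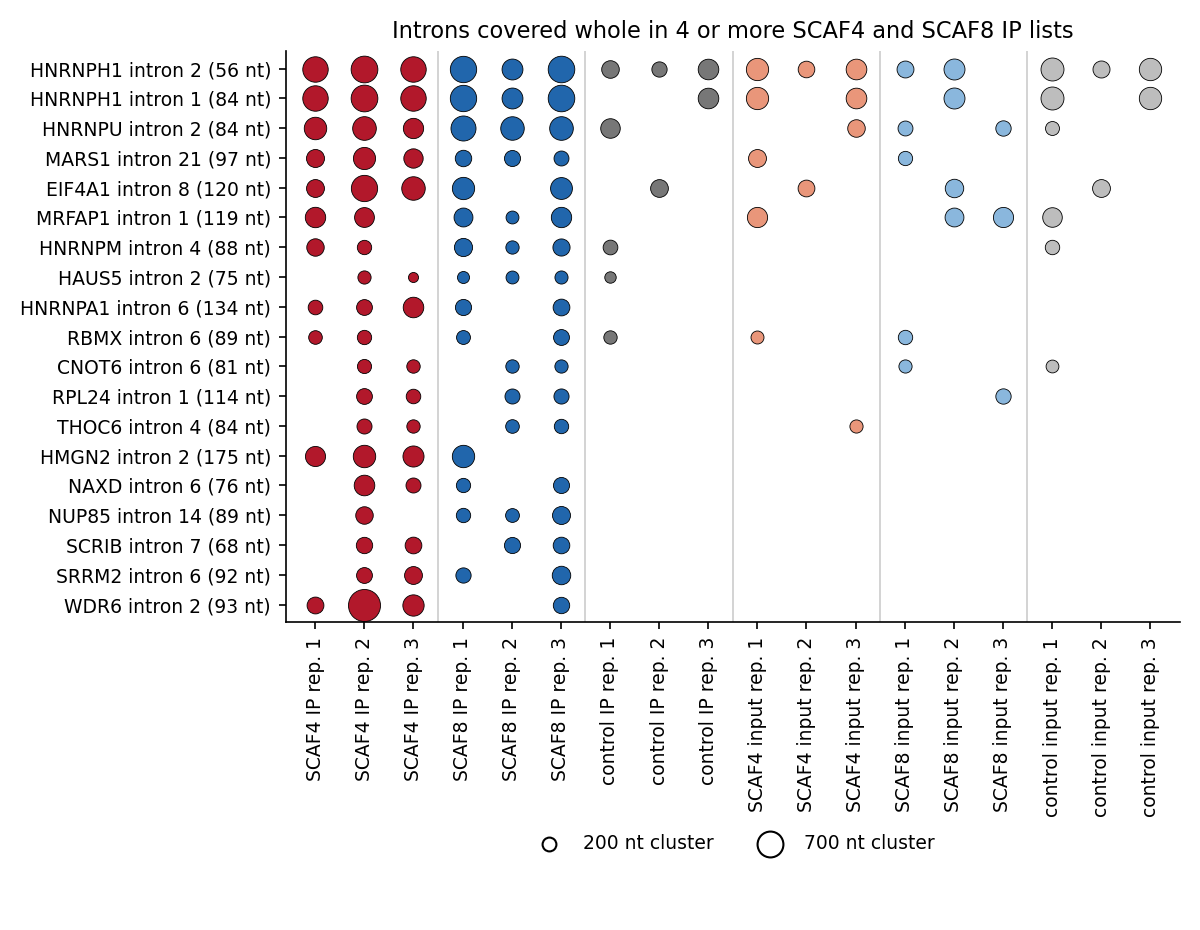
The 19 introns covered whole in 4 or more of the 6 SCAF4 and SCAF8 IP lists, by list (a circle marks a covering cluster, its area the cluster length in nt). The HNRNPH1 and HNRNPU introns at the top have circles in input and control IP columns, and the HNRNPA1 row and the 6 lowest rows have none there.

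The most often covered intron was intron 2 of HNRNPH1, an hnRNP protein that binds G-rich RNA in splicing control, at chr5:179617933-179617988. It is 56 nt long, the shortest of all 366, and it was covered in 17 of 18 lists, replicate 3 of the SCAF8 input being the exception. Its neighbour, intron 1 of the same isoform (84 nt), was covered in 12. In the SCAF4 IP a single cluster of 678, 748 and 679 nt held both introns, and in the SCAF8 IP one of 727, 457 and 740 nt. In the inputs and the control IP the cluster over intron 2 measured 244 to 553 nt. The lengths overlapped between those lists and the IP of the tagged lines, and the intron was covered in 3 of 3 control IP lists, where no tagged protein was present.

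Other introns were covered in inputs and control IP lists as well. Intron 2 of HNRNPU (a nuclear scaffold and RNA-binding protein, 84 nt) was covered in all 6 SCAF4 and SCAF8 IP lists, 4 inputs and 1 control IP list. Its clusters measured 529, 586 and 431 nt in the SCAF4 IP and 656, 579 and 585 nt in the SCAF8 IP, against 204 to 400 nt in the others. HNRNPU intron 9 (102 nt) was covered in 3 SCAF4 and SCAF8 IP lists, 2 inputs and 1 control IP list. Intron 8 of EIF4A1 (the translation initiation helicase, 120 nt) was covered in 5 IP lists of the tagged lines, 3 inputs and 1 control IP list. Intron 1 of MRFAP1 (119 nt) was covered in 5 IP lists and 4 inputs, and it lies within an exon of the MANE Select isoform. GRAMD1A intron 9 (172 nt; a sterol transfer protein), STUB1 intron 3 (88 nt; a ubiquitin ligase) and ODC1 intron 9 (82 nt; the first enzyme of polyamine synthesis) were each covered in 1 control IP list and in 1, 2 and 3 IP lists of the tagged lines.

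Intron 21 of MARS1, the methionyl-tRNA synthetase, was covered in all 6 SCAF4 and SCAF8 IP lists and in 2 inputs. It is 97 nt long, and its clusters measured 340, 514 and 392 nt in the SCAF4 IP and 284, 270 and 234 nt in the SCAF8 IP. Every SCAF4 IP cluster was longer than every SCAF8 IP cluster there, and no control IP list covered the intron.

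Among introns that no input or control IP list covered, HNRNPA1 intron 6 came first, with 5 of 6 SCAF4 and SCAF8 IP lists. WDR6 intron 2 (93 nt) and HMGN2 intron 2 (175 nt; a nucleosome-binding protein) were each covered in 3 SCAF4 IP lists and 1 SCAF8 IP list. SCRIB intron 7 (68 nt; a cell polarity scaffold), NAXD intron 6 (76 nt; a nicotinamide nucleotide repair enzyme) and SRRM2 intron 6 (92 nt; a nuclear speckle protein of the spliceosome) were covered in 2 lists of each IP. NUP85 intron 14 (89 nt; a nuclear pore subunit) was covered in 1 SCAF4 IP list and all 3 SCAF8 IP lists. TRIM28 intron 12 (90 nt), SMC1A intron 15 (104 nt; a cohesin subunit) and POLE intron 5 (302 nt; the catalytic subunit of DNA polymerase epsilon) were covered in 3 lists each. Absence from the other lists is partial for some of these: clusters of any extent lay on HMGN2 intron 2 in 9 of the 12 input and control IP lists and on SCRIB intron 7 in 6, but in none on WDR6 intron 2, SRRM2 intron 6 and NUP85 intron 14.

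Besides METTL17, NARS1, DYNC1H1 and SRCAP, intron 7 of SF1 (93 nt), which encodes the branch point binding protein of the spliceosome, was covered in 3 of 3 SCAF4 IP lists and 0 of 3 SCAF8 IP lists. Its clusters measured 318, 378 and 364 nt. No intron showed the reverse, in 3 of 3 SCAF8 IP lists and 0 of 3 SCAF4 IP lists. The SCAF4 IP lists held more clusters in all, and the difference at single introns was not tested. No intron of SCAF4 or SCAF8 itself was covered.

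Among introns covered in 3 or more lists, the shortest after HNRNPH1 intron 2 were RECQL4 intron 16 (67 nt; a DNA helicase), HDAC10 intron 1 (68 nt), which also overlaps an exon of MAPK12, and, at the same length, SCRIB intron 7. The longest were POLE intron 5, NUP85 intron 12 (189 nt) and PRRC2A intron 7 (180 nt). Each of these was covered in 3 SCAF4 and SCAF8 IP lists (SCRIB in 4) and in no other list, HNRNPH1 excepted.

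Several genes had a run of covered introns. TRIM28 had 9 of its 16 introns covered, among them introns 12 to 16 in a row, and single clusters of 846 nt (SCAF4 IP replicate 2) and 816 nt (SCAF8 IP replicate 1) held introns 12 and 13 together. One of its introns, number 13, was also covered in an input. STUB1 had all 4 introns of its isoform covered, by SCAF4 IP lists and, for intron 3, 1 control IP list. POLE had 5 of 49 introns covered and FASN (fatty acid synthase) 5 of 42, each FASN intron in 1 list. MARS1 (of 22), HAUS5 (of 18; an augmin subunit of the spindle) and NUP85 (of 16) had 4 each, and BRD2 (a bromodomain protein) 3 of 10. In all, 61 genes had 2 or more covered introns, and 26 clusters covered 2 or more introns at once.

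Annotated small RNA genes overlapped 11 of the 366 covered introns. The share among all short introns is not given here, so the count does not tell whether such overlap is particular to covered introns. Intron 16 of TRIM28 and intron 13 of ABCF1 coincide base for base with the hairpins of MIR6807 (92 nt) and MIR877 (86 nt), the arrangement known as a mirtron, in which splicing and not Drosha frees the hairpin. Their mature strands are shown, from RefSeq, because they begin and end at the splice sites; the seed, bases 2 to 8, is in capitals.
hsa-miR-6807-5p: gUGAGCCAguggaauggagagg
hsa-miR-6807-3p: cACUGCAUuccugcuuggcccag
hsa-miR-877-5p: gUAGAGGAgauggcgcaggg
hsa-miR-877-3p: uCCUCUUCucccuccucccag

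The 4 seeds differed. TRIM28 intron 16 was covered in SCAF4 IP replicate 3 (455 nt) and SCAF8 IP replicates 2 and 3 (258 and 711 nt), and ABCF1 intron 13 in SCAF4 IP replicate 3 (233 nt). The clusters reached from 5 to 192 nt upstream of the TRIM28 hairpin and 2 nt upstream of the ABCF1 hairpin. They thus held the hairpin with exon bases on either side, and whether single reads spanned it was not tested. SCRIB intron 7 lies within the MIR937 hairpin, and CPSF1 intron 8 (77 nt; a cleavage and polyadenylation factor) holds MIR6849 and was covered in 1 SCAF8 IP list. AMH intron 2 (172 nt), in the gene of anti-Müllerian hormone, shares 13 nt with MIR4321 and was covered in 1 list of each IP. The small nucleolar RNA genes SNORA67, SNORD68 and SNORA64 lay in EIF4A1 intron 9, RPL13 intron 2 and RPS2 intron 3 (248, 209 and 239 nt), each covered in 2 lists; one of the lists for EIF4A1 was an input.

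The host genes were counted on 11 gene lists, from ribosomal proteins and splicing factors to the proteasome, the cytoskeleton and heat shock proteins. Of 7409 genes with an intron of 200 nt or less, 268 (3.62%) had such an intron covered in a SCAF4 or SCAF8 IP list, and 46 of 225 genes (20.4%) on 11 gene lists did. Where an IP cluster lay on an exon beside such an intron, the shares were 10.4% (268 of 2577 genes) and 26.4% (46 of 174). Transcript levels were not measured in these files, and their part in this difference was not tested. Of hnRNP genes 7 of 16 were covered (HNRNPA1, HNRNPA3, HNRNPDL, HNRNPH1, HNRNPK, HNRNPM and HNRNPU), and HNRNPM intron 4 (88 nt) was covered in 5 IP lists of the tagged lines, 1 control IP list and 1 input.

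Of cytoplasmic ribosomal protein genes 12 of 40 were covered, led by RPL9 intron 2 in 7 lists, RPL24 intron 1 in 5 and RPS16 intron 3 in 3. Of translation factor genes 10 of 36 were covered, with EIF4A1 intron 8 in 9 lists, EIF4A2 intron 2 in 3 and EEF2 intron 3 in 2. Of aminoacyl-tRNA synthetase genes 5 of 23 were covered, with LARS1 intron 1 and NARS1 intron 3 in 3 lists each after MARS1. Of core spliceosome genes 4 of 17 were covered, with SF3B3 intron 19 in 3 lists and PRPF8 intron 11 in 2. Of SR protein genes, 2 of 8 were covered, SRSF5 intron 5 in 2 lists and SRSF1 intron 3 in 1. Of proteasome genes 4 of 24 were covered, 1 of them (PSMC3IP) a member by its symbol only.

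Of RNA polymerase II subunit genes, 1 of 7 was covered: POLR2B intron 20 (81 nt) in SCAF4 IP replicate 3 and SCAF8 IP replicate 1. Of cleavage and polyadenylation factor genes, 1 of 13 was covered, CPSF1. Actin and tubulin genes (0 of 13) and heat shock protein genes (0 of 28) had none. An IP cluster lay on an exon beside a short intron in 6, 9, 9 and 12 genes of these lists, in the order given. Over all genes so reached, 10.4% had such an intron covered. These counts are small, and differences between the lists were not tested.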

How the data were processed

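PAR-CLIP reads of 36 libraries were, per the labels and the study's methods, trimmed with Trim Galore and cutadapt, aligned to GRCh38 with Bowtie2 2.2.9, cleared of duplicates with Picard and turned into clusters with PARalyzer, the fractions of a replicate combined. The deposited files give, for each cluster, its start and end and a score between 0.5 and 1 that the sources used here do not name; the authors had not yet removed clusters seen in input or control. Starts were read as 1-based, since base composition at cluster ends differed between strands by at most 1.13 percentage points under that reading and by 26.2 when read as 0-based. Read depth is not in the files, so precision rests on the number of clusters in a list (1621 to 54404).

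Isoforms came from GENCODE 44. Groups came from the labels. The study calls the replicates biological, and neither source says whether they were separate cultures, so p-values measure the spread between lists. Shares per list were compared by exact two-sided permutation tests on the difference of means, with Benjamini-Hochberg adjustment over 10 comparisons (scipy 1.17.1 under Python 3.11.15, with numpy 2.4.6 for arrays, pandas 2.3.3 for tables and pysam 0.24.0 for sequence), tested on simulated data. IP and input of one number came from the same extract and are paired; deviations per gene of same-numbered lists correlated at 0.0164 to 0.419 (9 pairs), and those of differently numbered lists at −0.316 to 0.183 (18 pairs), so the ranges overlapped and the pairing rests on the shared extract. Alternatives were an extension of 10 nt, MANE Select isoforms, clusters at or above the median score, introns exonic nowhere else, each replicate left out and the pairing; a 0-based reading, clusters of 200 to 400 nt and the omission of introns covered in 3 or more input or control IP lists were added after seeing the data.

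The introns named were the 10 covered in the most SCAF4 and SCAF8 IP lists and no other, the 5 covered in the most inputs and the most control IP lists, the 3 shortest and 3 longest covered in at least 3 lists, the 8 genes with the most covered introns, up to 5 covered in 3 of 3 lists of one protein and 0 of 3 of the other, up to 8 with small RNA genes and up to 3 for each of 11 gene lists. METTL17, NARS1, DYNC1H1, SRCAP, HDAC10, PRRC2A, TRIM28 and ABCF1 were printed, with HNRNPA1 and WDR6. The shortest cluster over each is of 300 nt or less and ends in coding exons, and introns on chromosome 8 were left out. Not every named intron of this kind was printed. NAXD intron 6 and SRRM2 intron 6, in coding parts with shortest clusters of 214 and 244 nt, were not. The members and gene lists were chosen with earlier results of these data known.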

Additional observations from a re-analysis of the deposited data

How the results depend on the processing

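The share of clusters covering a whole intron stayed higher in the SCAF4 and SCAF8 IP than in their inputs, on the same side of the threshold, under every alternative run. Its size moved: the difference of 0.197 percentage points was 0.115 without introns exonic in another transcript or gene, and the 4.08-fold ratio was 2.61-fold with MANE Select isoforms, 8.63-fold without introns exonic elsewhere and 9.45-fold without the introns covered in 3 or more input or control IP lists. The last of these filters picks introns by the inputs and control IP lists themselves. The higher ratio under it is thus built in, and other results given below under that filter carry the same limit. The difference is not separable from list size, and inputs and control IP lists held 1 to 10 covering clusters each, which limits every comparison with them. Calls here are at an unadjusted p of 0.05. Against the control IP, where the adjusted p had not passed to begin with, the difference of 0.177 percentage points did not pass with an extension of at least 10 nt (0.144), with MANE Select isoforms (0.1045), without introns exonic in another transcript or gene (0.0919), or with starts read as 0-based (0.176). With 1 replicate left out it was 0.137 to 0.224, where 4 lists against 2 allow no p below 0.0667, so the loss of the call there says nothing about stability. The share among clusters of 100 to 200 nt did not pass with MANE Select isoforms (0.0242). The share of whole-intron clusters at short-intron junctions did not pass with MANE Select isoforms (1.85 percentage points), when clusters scoring below the list's median were dropped (2.945) or with 1 replicate left out (2.52 to 4.28). The log2 ratio of introns to exons turned negative with the 10 nt extension (−0.031) and MANE Select isoforms (−0.17), and passed without introns exonic elsewhere (0.83) and without the introns covered in 3 or more input or control IP lists (1.59), where 1 input list gave no ratio in either case. The difference in median intron length turned positive when those clusters were dropped (3.5 nt) and without introns exonic elsewhere (1.2 nt), and was −24.0 nt without the introns covered in 3 or more input or control IP lists. The difference in first introns was −8.32 percentage points with MANE Select isoforms, −3.87 without replicate 3 and −33.64 without introns exonic elsewhere. The GC difference did not pass without the introns covered in 3 or more input or control IP lists (5.63). The causes were not tested.

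In the replicate block, IP and input of one line were paired by number. Against the control IP, lists of different lines were grouped by replicate number alone, without a shared extract. The difference from the control IP was again 0.177 percentage points (exact permutation p = 0.111, lowest possible 0.037). At short-intron junctions the difference from the inputs was 3.41 percentage points (exact permutation p = 0.0625). Neither difference passed at that unadjusted threshold. The block moved no other comparison across it. For the share against the inputs, the share among clusters of 100 to 200 nt and the GC difference, the exact permutation p was 0.0312. That is the lowest value the block allows there.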
